A study of Mus musculus with 10 samples.

Results

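Tshz2 excitatory nuclei of the mouse hippocampus are described here: 1766 of the 15661 barcodes in a single-nucleus RNA-seq matrix, and 20% (95% exact binomial interval 19.2 to 20.9) of the 8829 nuclei that carried the transcripts of excitatory neurons. The rule that chose them counts unique molecular identifiers (UMIs), the tags that mark single captured transcript molecules. A nucleus had to hold at least 500 UMIs, at least 2 of Slc17a7, Sv2b and Arpp21 together (the vesicular glutamate transporter VGLUT1, a synaptic vesicle protein and a cyclic AMP-regulated phosphoprotein), at most 1 of Gad1 and Gad2 (the GABA-synthesising enzymes) and at most 1 of Dcn (decorin). It then needed at least 3 UMIs of Fn1, Nts and Tshz2 together, and this sum had to exceed Foxp2 plus Tle4, exceed Rorb plus Cux2, and be no lower than the sum of 6 CA1 genes (Mpped1, Fibcd1, Gm2115, Wfs1, Spink8 and Man1a). All 10 samples belong to a single group: hippocampus of wild-type (WT) C57B/6J mice of 4 to 7 months, without stimulation; 4 of the titles also carry the words RNASET2 and Control, whose meaning the labels do not give. Nuclei came from frozen tissue, were stained with the DNA dye 7AAD and flow-sorted, and about 5000 per sample were loaded for 10x 3′ libraries. The barcodes carry 7 suffixes that no label ties to a sample, so the matrix counts as 1 sample, no test was possible, and the suffixes are called barcode sets 1 to 7. Intervals on counts and ratios are exact 95% intervals, binomial or Poisson, and cover counting error only.

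The subiculum is the main output region of the hippocampal formation and lies between CA1 and the presubiculum and entorhinal cortex, so dissected hippocampus can hold some of it and of the adjoining cortex. Tshz2 encodes a teashirt-family zinc finger transcription factor and is a widely used marker of near-projecting neurons, deep-layer excitatory cells whose axons stay close to their cell bodies. Fn1 (fibronectin, an extracellular matrix glycoprotein) and Nts (the precursor of the neuropeptide neurotensin) are used as markers of subicular pyramidal cells. Bcl11b encodes a zinc finger transcription factor known in the neocortex for marking deep-layer neurons that project out of the cortex.

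The label of the group as subicular-type rests on 3 marker genes, but nearly all of their UMIs were of Tshz2, so the nuclei are called by that leading gene. Tshz2 gave 37480 UMIs in 1764 of the 1766 members, with a median of 15 per nucleus, and made up 96.5% of the UMIs of the 3 genes. Fn1 gave 1253 UMIs in 340 members (19.3%), and Nts 104 UMIs in 68 members (3.85%). Tshz2 was the leading gene of the sum in 1748 members, Fn1 in 8 and Nts in 1, with 9 ties. With every nucleus thinned to 1000 UMIs, Nts was detected in 0.681% of members (0.352 to 1.19), against 0.575% (0.306 to 0.981) of oligodendrocyte-type nuclei, which should lack it. The unthinned shares were 3.85 and 0.852%, at median depths of 5653 and 1759 UMIs. In the other 7063 excitatory nuclei the thinned share was 0.113% (0.0490 to 0.223). Set 1 held 27 of the 32 UMIs of Nts in oligodendrocyte-type nuclei. Without it the thinned shares were 0.491% (0.212 to 0.965) in members, 0.171% (0.0353 to 0.499) in oligodendrocyte-type and 0.0507% (0.0105 to 0.148) in the other excitatory nuclei, and the intervals of the first 2 still overlapped. Unthinned, oligodendrocyte-type nuclei stood at 24.8 CPM (UMIs of a gene per 1000000 UMIs of the group) in set 1 and 4.25 CPM in set 3, against 37.8 and 3.15 CPM in members, and at 0, 0.644 and 0 CPM in sets 2, 4 and 5, against 5.47, 6.71 and 3.90 CPM in members. At this depth Nts is too sparse to carry the label. The thinned share of Fn1 was 8.12% (6.88 to 9.49) in members, 0.312% (0.196 to 0.472) in the other excitatory nuclei and 0.133% (0.0274 to 0.387) in oligodendrocyte-type nuclei. All 3 genes chose the members, so their levels there are a description, and a member without a UMI of Fn1 may still express it.

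Tshz2 (ENSMUSG00000047907) lies on chromosome 2 at 169633013 to 170071816, plus strand, in the GENCODE M21 annotation of GRCm38, and overlaps Gm26883, AY702102 and A630075F10Rik on the other strand. Fn1 (ENSMUSG00000026193) lies on chromosome 1 at 71585520 to 71653200, minus strand. Vwc2l (ENSMUSG00000045648), a secreted protein with von Willebrand factor C domains and the named gene with the highest ratio against other excitatory nuclei, lies on chromosome 1 at 70725715 to 70885397, plus strand. How the counting treated strand is not given in the sources used here, and whether reads of the genes opposite Tshz2 entered its count was not checked. The 250 bases upstream of the RefSeq start of Tshz2 and Vwc2l are shown because Tshz2 led the rule in nearly all members and Vwc2l had that ratio; RefSeq windows matched 3 of the 4 symbols looked up, without Fn1. Both are from RefSeq (GRCm38.p6), 5′ to 3′ on the strand of the gene, at chr2:169632259-169632508 and chr1:70725465-70725714, and capitals mark a match to a motif searched.
Tshz2: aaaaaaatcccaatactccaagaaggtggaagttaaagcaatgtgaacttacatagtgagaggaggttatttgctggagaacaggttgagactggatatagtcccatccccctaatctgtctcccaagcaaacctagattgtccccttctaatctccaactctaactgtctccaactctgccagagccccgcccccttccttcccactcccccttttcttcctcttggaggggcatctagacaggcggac
Vwc2l: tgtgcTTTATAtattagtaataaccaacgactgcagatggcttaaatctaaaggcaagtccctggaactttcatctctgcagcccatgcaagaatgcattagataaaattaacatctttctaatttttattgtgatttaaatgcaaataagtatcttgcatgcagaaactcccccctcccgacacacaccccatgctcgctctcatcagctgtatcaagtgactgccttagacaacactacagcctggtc
The search covered TGACGTCA (the cyclic AMP response element), TATAAA (the TATA box) and CACGTG (an E box) on both strands, none of which overlaps another. They occur in 1.56, 12.3 and 6.04% of 32536 RefSeq promoter windows of this length. The Tshz2 window held none of the 3, and the Vwc2l window held 1 TATA box on the opposite strand at position -245 from the start. The windows held 2 and 3 CpG dinucleotides, against a median of 6 over all windows, and the GC content was 48.8 and 40.8%, against a median of 52.4%.

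The share of members varied between barcode sets, whose samples are not known. It was lowest in set 1, at 10.5% (8.87 to 12.3, 133 members), and highest in set 5, at 31.4% (29.1 to 33.8, 487 members). Sets 2, 3, 4 and 6 lay between 17.6 and 21.5%, with 195 to 332 members each. Set 7 held 3 members among 24 excitatory nuclei and enters no statement by set. Tshz2 itself, which chose the members, ran from 1665 CPM in set 1 to 4160 CPM in set 6. Fn1 ran from 57.5 CPM in set 1 to 152 CPM in set 6. Nts stood at 37.8 CPM in set 1 and between 3.15 and 7.47 CPM in the other 5 sets.

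**Figure D1:**
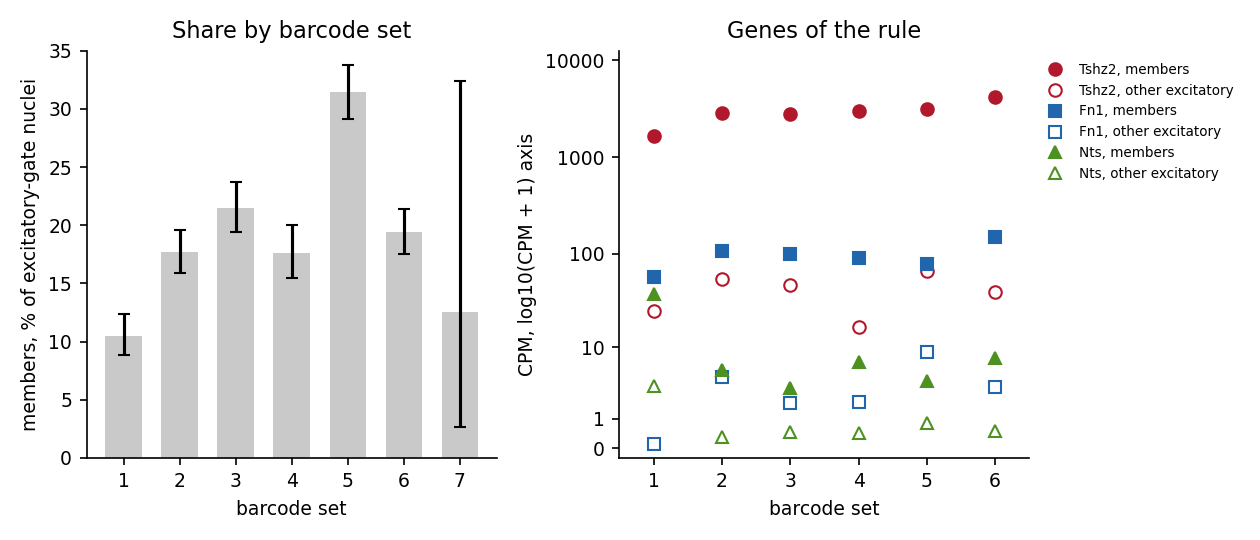
Left, members as a percentage of excitatory-gate nuclei in each barcode set, with exact 95% binomial intervals as bars; right, CPM of Tshz2, Fn1 and Nts on a log10(CPM + 1) axis in members (filled) and other excitatory nuclei (open), sets 1 to 6. The share runs from 10.5% in set 1 to 31.4% in set 5, and Nts in members is highest in set 1.

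Depth also differed, with median UMIs per member of 8078 to 10059 in sets 1 to 4 and of 2953 and 2368.5 in sets 5 and 6. Over all sets the median was 5653 UMIs in members and 6349 in other excitatory nuclei. The threshold of 3 UMIs admitted 51 members at exactly that sum, while 53 nuclei that met every other part of the rule had a sum of 2. Members at the threshold showed 707 CPM of Tshz2 and 167 CPM of Vwc2l, and nuclei just below it 610 and 211 CPM. A further 219 excitatory nuclei reached the sum of 3 but were held back by Dcn (29), the CA1 genes (113), Foxp2 plus Tle4 (92) or Rorb plus Cux2 (46), with some held back by several. Scrublet called 42 of the 1766 members as doublets, and 219 of all 15560 nuclei with at least 500 UMIs (1.41%). In sets 2, 5, 6 and 7 it called under 0.5% of nuclei and is not taken to have worked there. In sets 1, 3 and 4 it called 6 of 133, 20 of 312 and 7 of 195 members. These are larger shares than the 2.57, 3.33 and 1.82% of all nuclei called in those sets. Of the 15640 distinct barcode sequences, 21 occurred in more than 1 set, and 2 members carried such a barcode.

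Markers of other cell types were present in members and are given here as the summed level of each list. The 7 oligodendrocyte markers summed to 564 CPM in members and 477 CPM in other excitatory nuclei, and ran from 147 CPM in set 6 to 1856 CPM in set 5. At least 3 UMIs of them were found in 311 members (17.6%) and in 26.1% of the other excitatory nuclei. Of the inhibitory markers, 4 could be counted outside the rule, Slc32a1, Nxph1 and Erbb4 among them, and these summed to 417 CPM in members and 236 CPM in other excitatory nuclei, with 1538 CPM in set 1 against 197 to 600 CPM in sets 2 to 6. At least 3 UMIs of these were found in 260 members (14.7%), 74 of them among the 133 members of set 1, and in 9.15% of the other excitatory nuclei. The 6 vascular markers stood at 34.3 CPM in members and 13.1 CPM in the others, with 121 CPM in set 1, and the 5 oligodendrocyte precursor markers at 57.1 and 40.7 CPM. The 5 CA3 pyramidal markers stood at 356 and 568 CPM, the 4 corticothalamic markers at 1182 and 1321 CPM and the 5 Cajal-Retzius markers at 49.6 and 35.9 CPM. The mossy, layer 6b, thalamic or habenular and choroid plexus lists lay between 4.24 and 23.7 CPM in members and between 5.89 and 26.2 CPM in the others. The 6 microglia markers stood at 227 and 192 CPM and the 6 astrocyte markers at 21.6 and 33.0 CPM. The 6 dentate granule markers stood at 105 CPM in members and 584 CPM in other excitatory nuclei, and all 6 were at least 2-fold lower in members. One of the 6 vascular markers had no UMI in members, and every marker of the other lists had at least 1. The part of these cells in the results below was not tested, other than by leaving out every nucleus with at least 3 UMIs of a marker list, which kept 1067 members for the glial lists and 949 when precursor and inhibitory lists were added. Deep nuclei meet a fixed cut of 3 UMIs more easily. The microglia markers met it in 113 of 304 members of set 2, at 237 CPM, and in 39 of 487 of set 5, at 291 CPM. Results without such nuclei can therefore also differ in depth and in the mix of sets.

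Against the other excitatory nuclei, members carried much more transcript of Vwc2l, of the receptor gene Npsr1 and of the ubiquitin ligase gene Pdzrn3, and much less of Zbtb20, a transcription factor of hippocampal pyramidal and granule cells. Of the 13064 genes outside the rule with at least 100 UMIs, 625 (4.78%) passed 2-fold upwards in members and 505 (3.87%) passed it downwards. Of the genes with at least 500 UMIs over both sides that lay on 1 side of even in every set, the 12 with the highest ratio and 7 of the 8 with the lowest are named first. A gene was counted by this fold and not by a test, and the choice of the nuclei by 19 genes leaves all the ratios a description.

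Vwc2l ranged over sets 1 to 6 from 394 to 883 CPM in members and from 13.8 to 37.8 CPM in other excitatory nuclei. The groups did not overlap in any set, and the pooled ratio was 30.2 (28.6 to 32.0). It was detected in 60.6% of members and 6.03% of other excitatory nuclei, and at 1000 UMIs per nucleus in 39.0 and 1.74%. At that depth it was detected in 0.575% (0.306 to 0.981) of oligodendrocyte-type nuclei. Unthinned, these nuclei stood at 29.4 CPM in set 1, 44.8 CPM in set 5 and 3.86 to 7.44 CPM in sets 2 to 4. How much of the level in other excitatory nuclei is background was not tested. Npsr1, which encodes the receptor of neuropeptide S, was at 27.9 CPM in members of set 1 and at 134 to 198 CPM in those of the other sets, against 2.56 to 9.58 CPM in other excitatory nuclei. Its ratio was 27.4 (24.2 to 31.1) and was 42.4 without nuclei carrying glial, precursor or inhibitory markers. Pdzrn3 was at 164 to 601 CPM in members and 5.07 to 31.2 CPM in the others, a ratio of 25.8 (24.0 to 27.7), or 40.6 without the nuclei with those markers.

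The other 9 genes with the highest ratios had varied roles. Bmper, a secreted modulator of BMP signalling, reached 12-fold (10.8 to 13.3), with 73.6 to 132 CPM in members and 6.13 to 10.4 CPM in the others. Rxfp1, the relaxin receptor, reached 11.6-fold (10.7 to 12.6; 7.19 when every nucleus was thinned to 2000 UMIs before the rule was applied) and Chrm2, the M2 muscarinic acetylcholine receptor, 9.02-fold (8.25 to 9.86). Gpc6, a glypican heparan sulfate proteoglycan, reached 9.92-fold (9.61 to 10.2; 15.0 without nuclei carrying those markers), Sgcz, a sarcoglycan, 10.3-fold (10.2 to 10.5), and Pamr1, a secreted protein with a peptidase domain, 10.5-fold (8.68 to 12.7). Atp10b, a phospholipid flippase subunit, stood at 14.5-fold (12.2 to 17.3; 23.4 without nuclei carrying those markers), and in members ranged from 9.04 CPM in set 1 to 49.7 CPM in set 4. Coro6, a coronin of the actin cytoskeleton, stood at 13.0-fold (11.4 to 15.0), and Abca12, a lipid transporter, at 9.55-fold (7.95 to 11.5). For each of these 12 genes the lowest of sets 1 to 6 in members lay above the highest of them in other excitatory nuclei, which their choice by a high ratio in every set makes likely. Over all 13064 genes compared, 578 (4.42%) lay above in this way and 469 (3.59%) below.

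**Figure D2:**
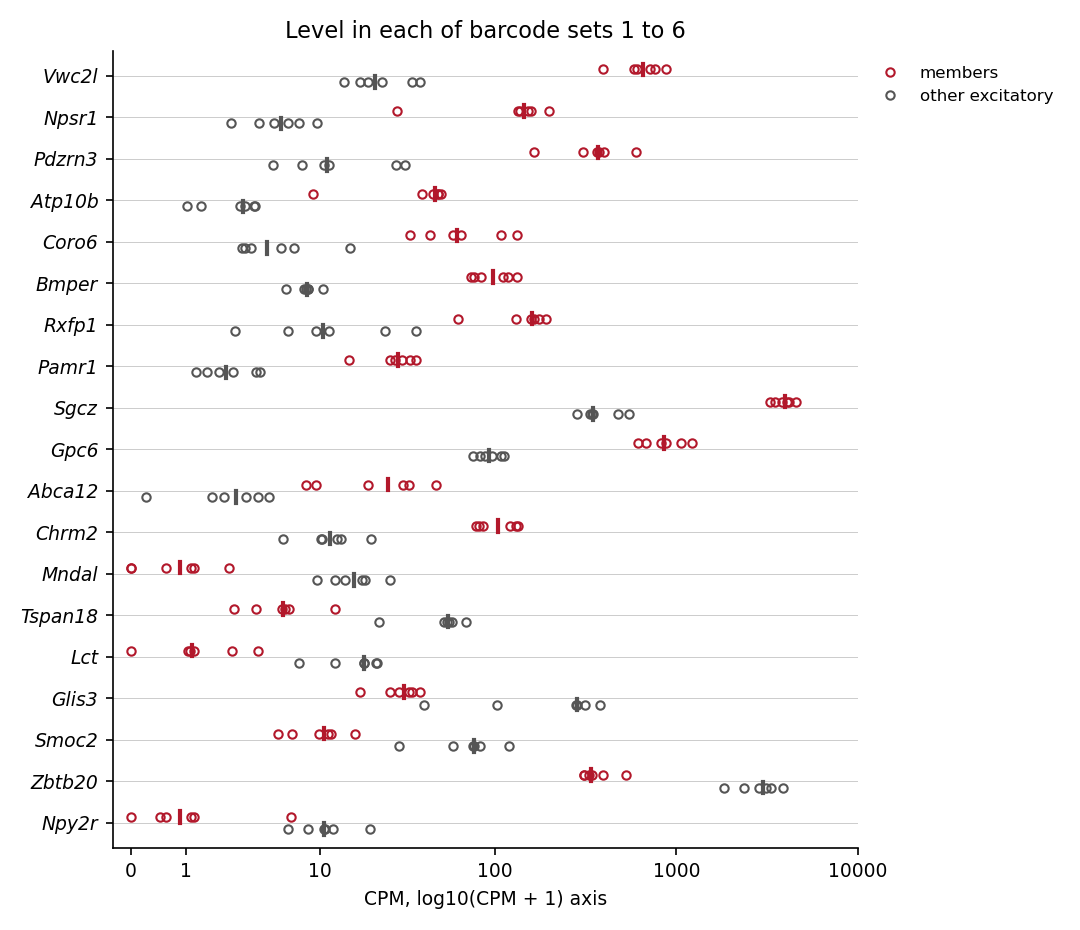
CPM on a log10(CPM + 1) axis of the 12 genes with the highest ratio and 7 of the 8 with the lowest, among genes with at least 500 UMIs on 1 side of even in every set, in members (red) and other excitatory nuclei (grey); each circle is 1 of barcode sets 1 to 6 and the bar is their median. Vwc2l lies between 394 and 883 CPM in members and below 38 CPM in the other nuclei, and Zbtb20 shows the opposite order.

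Among the lowest ratios were Glis3 and Lct, both on the dentate marker list. Zbtb20 was at 309 to 527 CPM in members and at 1829 to 3863 CPM in other excitatory nuclei, 8.64-fold lower (8.39 to 8.90), or 16.3-fold without nuclei carrying glial, precursor or inhibitory markers. Glis3, a Krüppel-like zinc finger factor, was 8.94-fold lower (8.10 to 9.90), with 17.3 to 38.1 CPM in members and 39.7 to 380 CPM in the others. Lct (lactase) was 9.51-fold lower (22.4-fold without nuclei carrying glial markers) and Smoc2, a secreted calcium-binding matrix protein, 8.67-fold lower. Npy2r, the Y2 receptor of neuropeptide Y, gave 18 UMIs in members and 704 in the others, 8.64-fold lower (5.43 to 14.7), and its sets overlapped, set 1 of members (6.57 CPM) lying above set 5 of the others (6.30 CPM). Tspan18, a tetraspanin, was 9.56-fold lower. Mndal was 20.01-fold lower (11.4 to 38.9; 9.50 without nuclei carrying glial markers) on 12 UMIs in members, but it overlaps its paralogs Ifi203 and Ifi211 on the same strand, so its counts are uncertain. When every nucleus was thinned to 2000 UMIs before the rule was applied, Tspan18 was 27.3-fold, Lct 38.8-fold, Glis3 15.4-fold and Mndal 10.3-fold lower.

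Of the 5 genes of the near-projecting list that were compared outside the rule, 3 were at least 2-fold higher and none was lower. Besides Vwc2l these were Rapgef3 (an exchange factor activated by cyclic AMP), at 4.78-fold (3.91 to 5.84), and Fezf2 (a zinc finger factor of deep-layer projection neurons), at 2.63-fold (2.29 to 3.02). Trhr, the receptor of thyrotropin-releasing hormone, stood at 1.13-fold (0.964 to 1.32) and Lypd1 at 1.11-fold (0.987 to 1.24). The list's median log2 ratio was 1.40, against 0.02 over all genes compared. For this list and those that follow, the shares over all genes compared were 4.78% higher and 3.87% lower.

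Of 7 retrohippocampal genes compared, 3 were at least 2-fold higher and none lower, with a median log2 ratio of 0.65. The lowest, Dlk1, stood at 0.69, but was 2.67-fold lower without set 1 and 3.67-fold lower after thinning to 2000 UMIs. Without nuclei carrying glial, precursor or inhibitory markers it was 3.38-fold lower. Slc17a6, the vesicular glutamate transporter VGLUT2, was at 93.7 CPM in members of set 1 and at 25.1 to 42.5 CPM in those of sets 2 to 6. The pooled ratio was 8.52 (7.32 to 9.93), 13.3 without set 1 and 5.46 without nuclei carrying glial markers. Slc17a7, the VGLUT1 gene of the rule, went the other way, with 131 CPM in members and 241 CPM in the others. Etv1 and Bcl11b of this list stood at 1.57 (1.49 to 1.65) and 0.78 (0.74 to 0.81). None of the 6 corticothalamic genes passed 2-fold in either direction, from Sulf1 at 1.44 (0.96 without nuclei carrying glial, precursor or inhibitory markers) to Crym at 0.74. Of 4 layer 5 extratelencephalic genes compared, none was at least 2-fold higher and 2 were lower, Lratd2 by 2.82-fold (6.90-fold after thinning). Bcl6 was the highest of them, at 1.25.

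Among the teashirt family and its CtBP corepressors, Tshz3 was 8.10-fold higher (7.68 to 8.54). It was found at 205 to 353 CPM in members and at 24.3 to 51.7 CPM in the other excitatory nuclei, without overlap. Tshz1 stood at 0.76 (0.63 to 0.90), Ctbp1 at 0.82 and Ctbp2 at 1.08, and none of these passed 2-fold.

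Of 28 transcription factors of projection neurons compared, 5 passed 2-fold upwards and 7 downwards. Among the 5 were Fezf2, Sox5 at 2.39-fold, Cux1 at 2.28-fold and Pou3f1 at 2.13-fold. The 7 lower factors included Zbtb20, Zeb2 (241 against 1124 CPM), Nfia (110 against 436 CPM) and Nfib (310 against 735 CPM), which regulate neuronal and glial differentiation.

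Transmitter receptors moved gene by gene. Of 23 glutamate receptor genes, 6 were higher and 3 lower. Grik1, a kainate receptor subunit, was 7.24-fold higher (6.83 to 7.67), 14.1-fold without nuclei carrying glial, precursor or inhibitory markers and 4.57-fold after thinning. The metabotropic receptor genes Grm4, Grm8 and Grm3 were 5.94-, 4.36- and 2.82-fold higher. Gria1, the GluA1 subunit of AMPA receptors, was 2.62-fold lower, and Grin2a, the GluN2A subunit of NMDA receptors, was at 1686 CPM in members and 3903 CPM in the others. One of 14 GABA receptor genes passed 2-fold, Gabrg1 (the gamma-1 subunit of GABA-A receptors), at 4.09-fold (3.52 to 4.75), or 2.51-fold after thinning. That is 7.14% of the list, against 4.78% of all genes compared.

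Of 29 neuromodulator receptor genes, 7 were higher and 5 lower. Chrm2 and Npy2r, given above, marked the ends. Between them the orexin receptor gene Hcrtr2 stood at 3.21-fold (2.861 to 3.603), the serotonin receptor genes Htr2c and Htr7 at 2.66- and 2.49-fold, and the nicotinic subunit genes Chrna4 and Chrna7 at 4.96 and 0.41. Of 11 neuropeptide precursors, Adcyap1 (the precursor of PACAP) stood at 4.05-fold (3.06 to 5.34), 9.31-fold without set 1 and 2.36-fold without nuclei carrying glial markers. Pcsk1, a convertase that cuts peptide precursors, was 2.93-fold higher (2.63 to 3.25), the only gene of the neurotensin receptor and processing list to pass 2-fold upwards, while the receptor gene Ntsr2 was 2.96-fold lower (4.60-fold after thinning).

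Ion channel genes also went both ways. Of 36 potassium channel genes, 6 were at least 2-fold higher and 5 lower, from Kcnip1, an auxiliary subunit of Kv4 channels, at 6.14-fold (5.74 to 6.57), to its relative Kcnip2, 2.81-fold lower. Kcnip1 reached 11.9-fold without nuclei carrying glial, precursor or inhibitory markers. Kcnh5, Kcnt1 and the Kv4 partner Dpp10 stood at 3.28-, 2.97- and 3.63-fold. Of 21 sodium, calcium and HCN channel genes, 2 were higher, Hcn3 at 2.44-fold and Cacna2d2 at 2.41-fold, and 1 lower, Scn3b, by 2.32-fold. These few genes are 9.52 and 4.76% of the list, against 4.78 and 3.87% of all genes compared. Hcn3 stood at 1.42 without nuclei carrying those markers and so fell below 2-fold.

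Of 34 cadherins, contactins, teneurins and protocadherins, all cell adhesion genes, 10 were higher and 4 lower, with a median log2 ratio of 0.45. Cntn6 was 7.47-fold (7.13 to 7.82), Cdh20 7.05-fold (6.76 to 7.36) and Cntnap4 4.86-fold higher, while Cntnap5c was 6.40-fold lower (10.5-fold without nuclei carrying glial, precursor or inhibitory markers) and Cdh9 was at 102 CPM against 456 CPM. Of 42 axon guidance genes, 6 were higher and 7 lower. Sema6d (3.07-fold), Unc5d (2.60-fold) and Sema5b (2.54-fold) were among the first, and Sema5a (4.08-fold lower) and Sema3e (65.2 against 225 CPM) among the second.

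**Figure D3:**
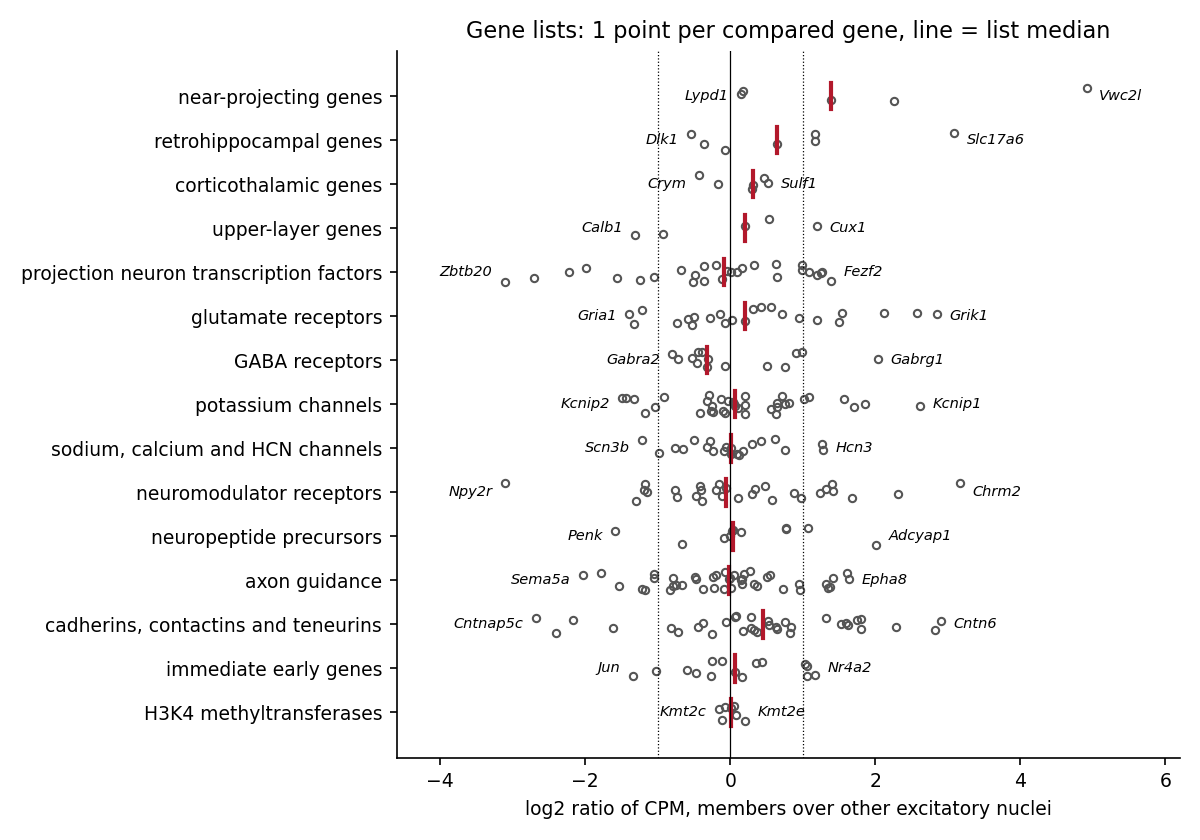
Log2 ratio of CPM, members over other excitatory nuclei, for the genes of 15 lists; each circle is 1 compared gene, the red line is the list median and the dotted lines mark 2-fold. Vwc2l, Chrm2 and Slc17a6 lie farthest right, Npy2r and Zbtb20 farthest left, and the H3K4 methyltransferases stay within 2-fold.

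The series title names SETD1B, a histone H3 lysine 4 methyltransferase. Setd1b was at 18.0 CPM (15.8 to 20.5) in members and 18.0 CPM (16.9 to 19.1) in other excitatory nuclei, a ratio of 1.004 (0.87 to 1.16). None of the 7 H3K4 methyltransferase genes passed 2-fold, from Kmt2e at 1.16 to Kmt2c at 0.90. Of 15 immediate early genes, 4 stood just above 2-fold (Nr4a2, Nr4a1, Fosl2 and Dusp1, from 2.25 to 2.03) and 2 were lower, Jun by 2.54-fold (4.92-fold after thinning) and Bdnf at 22.0 against 44.8 CPM.

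Against 2576 CA1-type nuclei, chosen by a leading sum of the 6 CA1 genes, 806 of 11828 genes (6.81%) passed 2-fold upwards in members and 343 (2.90%) downwards. Tshz3 stood at 21.04-fold here (18.9 to 23.5; 48.6 without nuclei carrying glial, precursor or inhibitory markers), with 294 CPM against 14.0 CPM. Atp10b reached 38.6-fold (26.4 to 58.6) and Vwc2l 42.2-fold (38.2 to 46.6). For Vwc2l the ratio was 71.8 without set 2 and 106 without nuclei carrying those markers. Adcyap1 stood at 9.92-fold (26.5 without set 1), Cntnap4 at 12.5-fold (20.7 without those nuclei) and Sema5b at 5.81-fold (9.43 without them). The lowest ratios were those of Epyc (a small leucine-rich proteoglycan), 10.1-fold lower, and Cntnap5c, 9.27-fold lower (8.75 to 9.84), followed by Bmpr1b (a BMP receptor), F2rl2 (a thrombin receptor) and Pkp2 (a desmosomal plakophilin), 7.27- to 7.99-fold lower. Without nuclei carrying glial markers Bmpr1b was 5.19-fold and F2rl2 13.4-fold lower. After thinning, Atp10b stood at 59.6-fold, Cntnap4 at 20.1-fold, Sema5b at 9.87-fold and Adcyap1 at 5.21-fold, and Bmpr1b was 3.49-fold lower. Bcl11b was at 167 CPM in members and 236 CPM in CA1-type nuclei.

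The 957 nuclei led by Foxp2 and Tle4, 2 genes of deep-layer cortical neurons, carried 842 CPM of the dentate granule markers, and 53.7% of them held Prox1 or Glis3, against 10.4% of members. They therefore cannot stand for deep-layer neurons alone. Against them 508 of 10989 genes (4.62%) passed 2-fold upwards in members and 397 (3.61%) downwards. Pdzrn3 stood at 53.2-fold (42.6 to 67.4), Npsr1 at 30.3-fold (65.5 without nuclei carrying glial, precursor or inhibitory markers) and Tox, an HMG-box factor, at 15.4-fold (14.1 to 16.8; 9.47 without nuclei carrying glial markers). Vwc2l stood at 19.5-fold (17.7 to 21.7) and at 11.8-fold when nuclei with Prox1 or Glis3 were left out of the comparison group. Pou3f1, a POU-domain factor, reached 18.3-fold, or 29.6-fold when those nuclei were left out. Tspan18, Smoc2 and Dpf3, a chromatin remodelling subunit, were 14.4-, 13.9- and 11.9-fold lower, the last 19.3-fold without nuclei carrying glial, precursor or inhibitory markers. Thinning made all of these differences but that of Npsr1 smaller: Pdzrn3 stood at 12.5-fold, Pou3f1 at 3.11-fold, Tox at 3.09-fold and Vwc2l at 2.75-fold, and Tspan18, Smoc2 and Dpf3 were 6.83-, 4.25- and 3.38-fold lower.

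The 123 nuclei led by Rorb and Cux2, 2 genes of superficial cortical layers, had levels of Slc17a6 within counting error of those in members, but they carried 1424 CPM of inhibitory markers and had at least 20 nuclei in 3 sets only. Vwc2l was at 199 CPM (172 to 229) in them, Slc17a6 at 35.8 CPM (24.9 to 49.8) against 38.0 CPM (34.7 to 41.5) in members, and Tshz2 itself at 185 CPM. Of 9802 genes, 293 (2.99%) passed 2-fold upwards in members and 273 (2.79%) downwards. Of 23 glutamate receptor genes none was at least 2-fold higher in members and 1 was lower, with Grik1 highest at 1.88. Of 14 GABA receptor genes none passed 2-fold, and of 21 neuromodulator receptor genes 1 was higher and 2 lower. Adcyap1 was 3.81-fold lower in members than in these nuclei, but not without set 1, as given below. Adamts2, a procollagen peptidase, was 14.3-fold higher (6.54 to 39.0), on 6 UMIs in the comparison group. Arhgap24, Sox6 (a factor of interneurons and oligodendrocyte precursors) and Apoe (apolipoprotein E, made largely by glia) were 4.72- to 4.91-fold lower.

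Members were not uniform. Bcl11b, a gene that the rule did not use, had a UMI in 685 of them (38.8%, 36.5 to 41.1) and none in 1081. Detection follows depth, and members with Bcl11b were deeper, with median UMIs of 8203 against 4248. With 1572 members thinned to 2000 UMIs, which left out 194 shallower ones, Bcl11b was found in 23.9%.

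Fn1 was found more often beside Bcl11b at that depth, in 23.5% (19.3 to 28.1) of thinned members with Bcl11b and in 9.69% (8.07 to 11.5) of those without it. Vwc2l was found in 40.5% (35.5 to 45.7) and 52.2% (49.3 to 55.1) of the same groups. By detection alone, Vwc2l was found in 12.3% (8.09 to 17.6) of thinned members with Fn1 and in 55.0% (52.3 to 57.6) of those without. Without thinning, 104 of the 340 members with Fn1 also held Vwc2l. Of the rest, 236 held Fn1 alone, 967 Vwc2l alone and 459 neither.

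**Figure D4:**
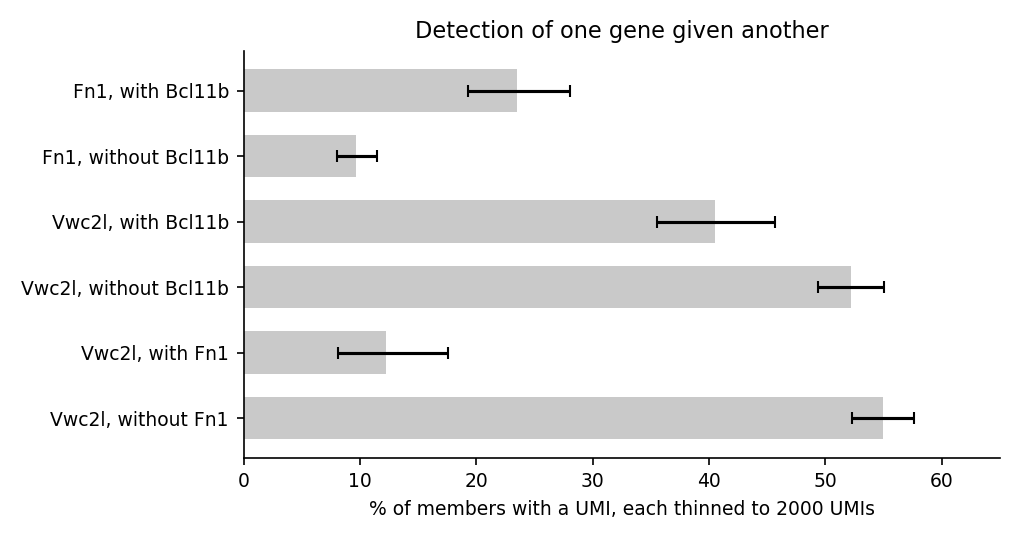
Percentage of members with a UMI of the first gene among members with or without a UMI of the second, each member thinned to 2000 UMIs; bars are shares and lines exact 95% binomial intervals. Fn1 is found in 23.5% of members with Bcl11b and 9.69% of those without, and Vwc2l in 12.3% of members with Fn1 and 55.0% of those without.

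Members with Bcl11b carried more Ndst4, Stac, Etv1 and Fn1, and members without it more Gpc6, Gabrg1 and Atp10b, while both carried Tshz2 and Vwc2l. Of 9576 genes, 202 (2.11%) passed 2-fold upwards with Bcl11b and 270 (2.82%) downwards. Tshz2 was at 2666 CPM with Bcl11b and 3108 CPM without. Vwc2l was at 431 to 809 CPM over sets 1 to 6 with Bcl11b and at 271 to 993 CPM without it, overlapping ranges with a ratio of 0.83 (0.80 to 0.87). Within sets, Vwc2l was lower with Bcl11b in sets 2 to 6 but higher in set 1, at 620 against 271 CPM. Tshz2 took the same course, at 2347 against 1291 CPM in set 1. Both groups came from all 6 sets, from 37 and 96 nuclei in set 1 to 140 and 347 in set 5. Bcl11b was detected in 27.8% of members in set 1 and 28.7% in set 5, and in 41.9 to 49.2% in the other 4 sets.

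On the side with Bcl11b, Ndst4, a heparan sulfate sulfotransferase, ranged from 455 to 903 CPM against 13.3 to 216 CPM. Its ratio was 9.22 (8.30 to 10.3), with 18.4 as the median over sets and 5.31 without nuclei carrying glial markers. Stac, an adaptor of calcium channels, ranged from 111 to 251 CPM against 2.22 to 70.5 CPM and was 9.16-fold higher (5.28-fold without nuclei carrying glial markers). Etv1, a transcription factor of layer 5 neurons, was at 251 to 546 CPM against 21.6 to 108 CPM, and was found in 55.9 and 13.04% of the nuclei. After thinning the ratios of Ndst4, Stac and Etv1 were 3.46, 2.84 and 2.48. None of these 3 genes overlapped between the groups, which their choice by a high ratio in every set makes likely. Fn1 did not overlap either, at 103 to 203 CPM against 1.11 to 97.0 CPM. The share of all compared genes without overlap was not counted for this division. Fezf2 did overlap, at 21.001 to 122 CPM against 0 to 37.5 CPM, with a ratio of 4.96 (3.70 to 6.75; 7.80 without set 5, 10.1 as the median over sets). Within each of sets 1 to 6 Fezf2 was higher with Bcl11b.

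The highest ratio among the genes with at least 200 UMIs that lay on 1 side in every set was that of Shoc1, a protein of meiotic recombination, at 9.95 (6.47 to 16.0) on 229 and 23 UMIs (16.1 without set 2, 4.35 after thinning). The small GTPase gene Rab38, the receptor tyrosine kinase gene Ror1, the actin-bundling plastin gene Lcp1 and the GDNF family receptor gene Gfra1 stood between 6.08- and 6.59-fold, and between 3.05- and 3.67-fold after thinning. The serotonin receptor gene Htr1f was 6.01-fold, Alk, a receptor tyrosine kinase, 4.15-fold and the potassium channel gene Kcnh8 3.56-fold higher. Both layer 5 extratelencephalic genes compared were at least 2-fold higher, Npr3 at 5.37 (2.87 without nuclei carrying glial markers, 1.64 after thinning and so below 2-fold) and Bcl6 at 3.75, as were 2 of 3 corticothalamic genes, Hs3st4 by 3.67-fold. Sema5b, Grik1 and Kcnip1, which were high in members as a whole, were 4.57-, 3.601- and 3.23-fold higher with Bcl11b, and Grik1 5.99-fold without nuclei carrying glial, precursor or inhibitory markers.

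On the side without Bcl11b, Gpc6 ranged from 902 to 2537 CPM against 86.0 to 327 CPM with it, without overlap, and was 5.99-fold lower with Bcl11b (5.69 to 6.30; 11.05-fold without nuclei carrying glial, precursor or inhibitory markers). Cux2, a rule gene of upper layers, was at 109 to 293 CPM against 11.6 to 70.0 CPM, and was found in 49.3 and 12.6% of the nuclei. The rule kept Rorb plus Cux2 below the sum of Fn1, Nts and Tshz2 in every member, so the levels of Cux2 are a description. Pdzrn3 was at 196 to 1189 CPM against 107 to 202 CPM, and Mef2c, an activity-regulated transcription factor, at 226 to 803 CPM against 69.7 to 271 CPM. For both of these genes set 1 of the members without Bcl11b lay within the range of the other group. Within each of sets 1 to 6 both were higher without Bcl11b. Atp10b was 6.24-fold lower with Bcl11b (4.89 to 8.06), at 2.32 to 20.4 CPM against 12.7 to 113 CPM, and 22.3-fold lower without nuclei carrying glial, precursor or inhibitory markers.

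The lowest ratios were those of Gabrg1, 7.88-fold lower with Bcl11b (5.61 to 11.4; 18.0-fold after thinning), and of the prolactin receptor gene Prlr, 7.87-fold lower (4.00-fold without nuclei carrying glial markers, 3.55-fold as the median over sets). Emcn (endomucin, a sialomucin), the phosphatase gene Cdc14a and the serotonin receptor gene Htr7 were 5.74- to 6.49-fold lower. Cdc14a was 2.75-fold lower as the median over sets and 3.97-fold without set 3, and without nuclei carrying glial, precursor or inhibitory markers it was 23.4-fold and Htr7 18.1-fold lower. After thinning Emcn was 17.7-fold and Cdc14a 22.4-fold lower. The netrin receptor gene Unc5d was 4.29-fold lower (6.97-fold without those nuclei). Of 4 upper-layer genes compared, 3 were at least 2-fold lower and none higher, from Otof (otoferlin) at 5.37-fold lower (17.9-fold without those nuclei, 9.79-fold after thinning) to Cux1 at 0.55. Of 5 neuropeptide precursors, 3 were at least 2-fold lower, Cck by 2.65-fold, and the list's median log2 ratio of -1.12 was 0.17 without set 1. Tshz3 and Slc17a6 stood at 0.58 and 0.62. Within set 1 Tshz3 was higher with Bcl11b, at 293 against 156 CPM, and within set 6 so was Slc17a6, at 31.1 against 26.4 CPM. None of the 7 H3K4 methyltransferase genes passed 2-fold.

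**Figure D5:**
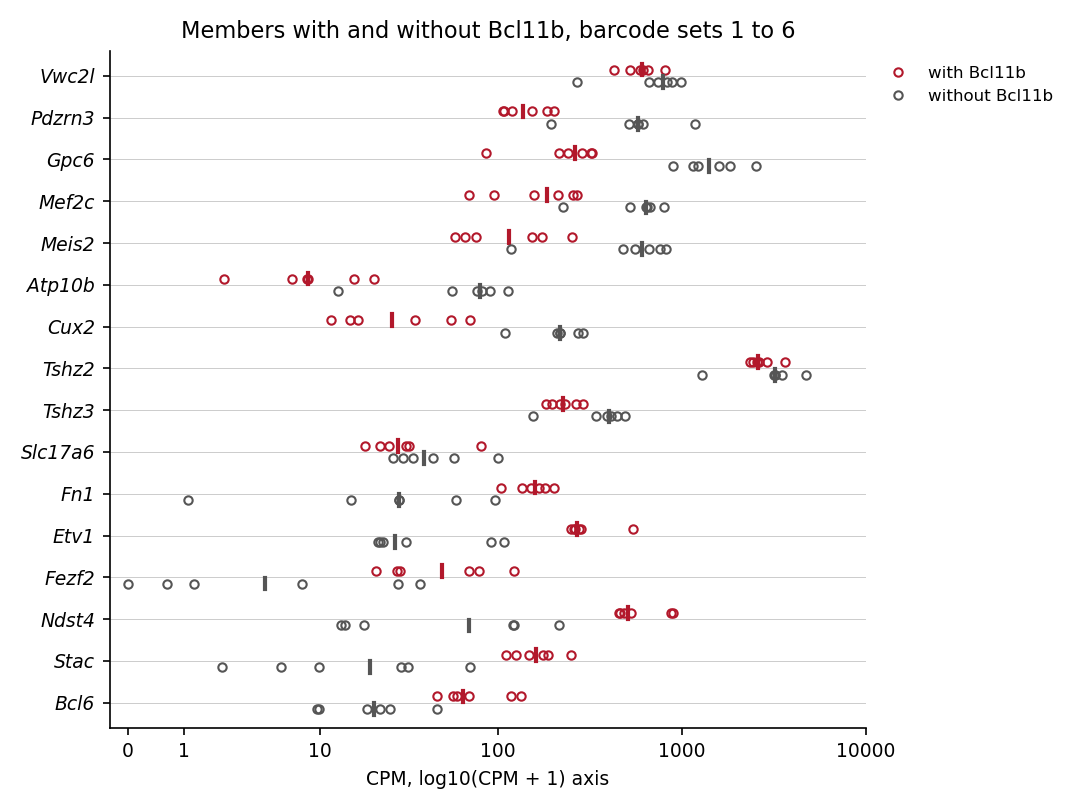
CPM on a log10(CPM + 1) axis of 16 genes in members with Bcl11b (red) and without (grey); each circle is 1 of barcode sets 1 to 6 and the bar is their median. Ndst4, Stac and Etv1 are higher with Bcl11b and Gpc6 and Cux2 without it, and the ranges of Vwc2l overlap. Cux2 is a rule gene whose level in members the rule limits.

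Markers of other cells moved with this division. Inhibitory markers stood at 343 CPM with Bcl11b and 491 CPM without, oligodendrocyte markers at 637 and 490.5 CPM, and CA3 pyramidal markers at 211 and 500.5 CPM. Dentate granule markers stood at 135 and 74.3 CPM, oligodendrocyte precursor markers at 41.3 and 72.9 CPM, and the corticothalamic list, which holds Hs3st4, at 1842 and 522 CPM. Mossy markers were at 2.001 and 7.55 CPM and choroid plexus markers at 9.39 and 5.70 CPM. Their part was not tested.

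The 340 members with Fn1 were compared with the 1426 without it in the same way. They were deeper, with median UMIs of 8179.5 against 5404.5, and detection of Fn1 follows depth. Inhibitory markers stood at 171 CPM with Fn1 and 499 CPM without, and oligodendrocyte markers at 285 and 657 CPM. CA3 pyramidal markers stood at 101 and 441 CPM, corticothalamic at 720 and 1337 CPM, dentate granule at 75.1 and 115 CPM, oligodendrocyte precursor at 22.7 and 68.6 CPM and vascular at 10.7 and 42.3 CPM. The mossy, thalamic or habenular, Cajal-Retzius and choroid plexus lists were lower with Fn1 as well, at 0.307 to 33.4 CPM against 6.27 to 55.02 CPM. The part of these cells was not tested. Of 9577 genes, 135 (1.41%) passed 2-fold upwards with Fn1 and 495 (5.17%) downwards. Ndst4 was at 674 to 1271 CPM over sets 1 to 6 with Fn1 (16 nuclei in set 1) and at 71.2 to 298 CPM without it, a ratio of 7.41 (6.91 to 7.95). Stac (6.55, 5.78 to 7.43), Bcl6 (6.31, 5.25 to 7.60), the phosphodiesterase gene Pde11a (5.76, 5.07 to 6.55), the GDNF family receptor gene Gfra1 (5.34, 4.65 to 6.14) and Etv1 (5.002, 4.58 to 5.47) were also higher. Bcl11b itself was at 278 CPM (261 to 297) with Fn1 and 129 CPM (122 to 136) without. Vwc2l was at 338 CPM (318 to 358) with Fn1 and 822 CPM (804 to 840) without. Gpc6 was 9.62-fold lower with Fn1 (8.72 to 10.6). Atp10b was 9.37-fold lower on 19 UMIs (20.6-fold without set 3, 5.82-fold as the median over sets). Without nuclei carrying glial, precursor or inhibitory markers Gpc6 was 18.5-fold and Atp10b 51.5-fold lower. The gene for the receptor tyrosine kinase Kit was 8.77-fold lower (22.9-fold without those nuclei and 22.9-fold after thinning). Of 4 upper-layer genes compared, 3 were at least 2-fold lower and none higher, and both layer 5 extratelencephalic genes were at least 2-fold higher. Of 5 near-projecting genes 1 was higher and 3 lower, with a median log2 ratio of -1.22, of 5 retrohippocampal genes 3 were higher and 1 lower, and of 3 corticothalamic genes 1 was higher and 1 lower. The near-projecting median was 0.014 without nuclei carrying glial markers. Nts, on 104 UMIs in all, was at 18.1 CPM (13.8 to 23.3) with Fn1 and 4.63 CPM (3.38 to 6.19) without. Fn1 and Nts both belong to the sum that chose the members, so these Nts levels are a description.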

How the data were processed

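The deposited matrix holds whole-number UMI counts for 24837 genes and 15661 barcodes (101300889 UMIs), made by the authors with Cell Ranger 4.0.0, per the file headers and the submitters' processing notes, which also name mm10 and GRCm38. For intron counting, strand, annotation release and barcode filters, the setting is not given in sources used here. Barcode suffixes 1 to 7 were not tied to the 10 samples, so no comparison between samples, no test and no p-value was possible. UMIs were summed over nuclei, scaled to CPM and compared as ratios with exact 95% Poisson intervals. Genes needed 100 UMIs over both sides and stood outside the 19 rule genes, and a call is a ratio of at least 2 or at most 0.5. The named genes are the 12 highest and 8 lowest ratios (5 and 5 against other classes, 8 and 8 within members) that lay on 1 side in every barcode set with at least 20 nuclei a side, with at least 500 UMIs (200 within members), plus the highest, the lowest and some further genes of each list. Other genes were named after their values were seen, and some results are not reported here. The members and all lists were chosen with earlier results of these data known, and both divisions within members were added after the data were seen. CA1-type, Foxp2 and Tle4, and Rorb and Cux2 nuclei needed a leading sum of at least 3 UMIs. Coordinates are from GENCODE M21 (24715 genes matched). The ratio code was tested on simulated data. Python 3.11.15, numpy 2.4.6, scipy 1.17.1, pandas 2.3.3 and scanpy 1.11.5 (Scrublet) were used. Other thresholds, depths, filters, scalings and left-out barcode sets were tried as alternatives.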

Additional observations from a re-analysis of the deposited data

Results flagged for a closer look

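In 8 measures over the 6 barcode sets with at least 20 members, 3 had 1 set far from the others by Dixon's criterion, used as a screen and not as a test, because the barcode sets are not labelled samples. Chance meets it in about 1 of 20 groups. The level and the detection of Nts, a gene of the rule, are 2 of the 3 and are not separate. Nts was detected in 15.8% of members in set 1, against 1.23 to 6.15% in sets 2 to 6, and its level there was 37.8 CPM. Oligodendrocyte-type nuclei of set 1 also had the high Nts level of 24.8 CPM, and inhibitory markers in members were highest in that set. Bcl11b was at 281.8 CPM in members of set 6 and at 126 to 179 CPM in sets 1 to 5. Set 6 also had the lowest median depth of members, 2368.5 UMIs.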

How the results depend on the processing

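The share of members was 18.7% with a sum of at least 5 UMIs, 22.1% without nuclei carrying glial markers, 21.2% when precursor and inhibitory markers were added, and 17.7% after thinning to 2000 UMIs. It lay between 17.6 (without set 5) and 21.6% (without set 1) when 1 barcode set was left out. Counts of genes past 2-fold moved by over 1.5 times only in the following cases, and the cause was not tested. Fewer UMIs or a changed filter also left fewer or more genes to compare. With no filter on UMIs, genes higher and lower were 1929 and 916 against other excitatory nuclei, 1981 and 868 against CA1-type, 1452 and 1137 against Foxp2 and Tle4, 669 and 2942 against Rorb and Cux2 nuclei, 907 and 1276 between members with and without Bcl11b, and 957 and 1527 between Fn1 groups. With at least 500 UMIs they were 342 and 329, 375 and 221, 255 and 218, 76 and 46, 99 and 94, and 72 and 164, in the same order. After thinning to 2000 UMIs, higher counts were 336 against other excitatory, 418 against CA1-type and 466 against Rorb and Cux2 nuclei, and both counts were 188 and 101 against Foxp2 and Tle4 nuclei, 57 and 116 between Bcl11b groups, and 79 and 242 between Fn1 groups. Without scaling to CPM they were 451 and 848 against CA1-type and 184 and 1479 against Foxp2 and Tle4 nuclei, 515 and 205 between Fn1 groups, and 1280 and 77 between Bcl11b groups. Without nuclei carrying glial markers they were 277 and 199 against Foxp2 and Tle4 nuclei, 131 higher between Bcl11b groups, and 305 lower between Fn1 groups. With precursor and inhibitory markers added, lower counts were 231, 161 and 230 against Foxp2 and Tle4 nuclei, against Rorb and Cux2 nuclei and between Fn1 groups. The mean of CPM per nucleus gave 474 lower against Rorb and Cux2 nuclei.

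Against other excitatory nuclei no named gene past 2-fold changed direction. Of the layer 6b list only Moxd1 was compared, at a log2 ratio of -1.30. With no filter on UMIs the median over the list was 0.74. Against Foxp2 and Tle4 nuclei, thinning gave ratios of 0.878 for Adcyap1 and 0.878 for Plxnd1. Against Rorb and Cux2 nuclei, thinning gave 0.640 for Bcl6, 0.645 for Crhr1, 0.414 for Nr4a3 and 1.19 for Kcnc2, the median over sets gave 0.764 for Grp, 1.18 for Syt6 and 1.35 for Adcyap1, and leaving out 1 set gave 0.214 (set 2) to 1.18 (set 1) for Adcyap1. Between Bcl11b groups the corticothalamic list had a median log2 ratio of -0.35 with no filter, against 1.25, and the neuropeptide precursor list one of 0.061 as the median over sets and of -1.12 (without set 7) to 0.17 (without set 1) when 1 set was left out. Between Fn1 groups the near-projecting list, at a median log2 ratio of -1.22, had one of 0.014 without nuclei carrying glial markers and 0.46 with precursor and inhibitory markers added, and the retrohippocampal list one of -0.036 with no filter, against 1.11. Tshz2-led against Fn1-led members was not run, because 8 members were led by Fn1. Depth limits detection in single nuclei most in sets 5 and 6.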

Other observations

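Vwc2l and the rule gene Fn1 bound a stretch of chromosome 1 (70725715 to 71653200, GRCm38, GENCODE M21) that was looked at because both were known to be high in members. Against other excitatory nuclei, the 2 other genes of the matrix in it stood at 9.55-fold (Abca12, a lipid transporter gene also named above) and 1.94-fold (1.65 to 2.28; Atic, a purine synthesis gene).

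Hmga2, which encodes an architectural chromatin protein best known from embryonic tissue, was chosen after its values were seen and had too few UMIs for the named genes. It gave 102 UMIs in members and 3 in the other excitatory nuclei, a ratio of 154 (51.2 to 759), and passed the minimum of 100 UMIs only through the members, so this is a description. Of the 102 UMIs, 3 fell in members with Fn1 and 99 in members without it. These groups held 3261058 and 9723322 UMIs of all genes.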
